A study of Mus musculus with 4 samples.

Results

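The skeletal regulators of the SOX and RUNX transcription factor families, 8 genes in all, were read in the first pharyngeal arch: the SoxD genes Sox5 and Sox6, the SoxE genes Sox8 and Sox9, the Runx genes Runx1, Runx2 and Runx3, and Cbfb. They were taken by gene symbol from a table of 52459 genes, all 8 were found, and 7 reached the minimum level for testing. RNA came from mouse first arches, the embryonic tissue that gives rise to the jaws, collected between E9.5 and E9.75 with 25 to 27 somites. The Wnt1-Cre;pMes-Bmp4 group (2 libraries) carried a Cre driver active in the premigratory neural crest and the dorsal neural tube, together with a Cre-dependent Bmp4 transgene. It was set against wild-type arches (2 libraries). No library carried either transgene alone, so an effect of raised Bmp4 cannot be told apart from one of the transgenes or the genetic background. The labels do not say how many embryos went into a library.

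Cartilage and bone of the face arise mostly from neural crest mesenchyme of the arches. SOX9 commits cells to cartilage, and SOX5 and SOX6, which lack an activation domain of their own, act with it on cartilage matrix genes. SOX8 is a close relative of SOX9. RUNX2 commits cells to bone, RUNX1 is required for definitive blood formation, and RUNX3 acts in proprioceptive sensory neurons and in T cells. CBFB binds no DNA itself and is the shared partner that stabilises all RUNX proteins on DNA. BMP signalling is known to act upstream of both families in skeletal tissue, and the comparison asks how these regulators stood in arches with added Bmp4, at a stage that precedes cartilage and bone.

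None of the 7 genes tested passed in either direction (0 higher, 0 lower at a limma adjusted p under 0.05), where 2.97% of all 16746 genes tested were higher and 5.28% lower, 8.25% in either direction. The means of all 4 Sox genes were lower in Wnt1-Cre;pMes-Bmp4 arches, with log2 fold changes between -0.70 and -0.46, and none was past the threshold. Runx1, Runx2 and Cbfb differed by less, at 0.09, -0.36 and -0.09. Of the 7 genes, 3 had an unadjusted p under 0.05 (Sox5, Sox6 and Sox9), as had 4816 of all genes tested. By edgeR's quasi-likelihood test 0 of the 7 passed, and by DESeq2 2 were lower, Sox6 and Sox9, with DESeq2 adjusted p values of 0.0369 and 0.0264, where 11.1% of genes with an adjusted p were lower.

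The libraries held 29607541 to 47849092 reads assigned to genes. Bmp4 was at 2656 and 1745 normalized reads in Wnt1-Cre;pMes-Bmp4, against 682 and 437 in wild-type arches. The crest mesenchyme and arch genes Prrx1 and Dlx2 were present in every library, at 2479 normalized reads or more, while Hoxa2, Hoxb2 and Hoxa3, which mark more posterior arches, had at most 5.93. Markers of other cells moved with genotype. Of 9 epithelium markers tested, 2 were higher (Krt18 and Krt14), and the summed level of all 10 listed was 34079 and 31959 in Wnt1-Cre;pMes-Bmp4 against 25254 and 19084 in wild-type arches. Of 10 red cell markers, 5 were lower, among them Hbb-y, Slc4a1, Hba-a1 and Hba-x, and the sum was 419418 and 450638 in Wnt1-Cre;pMes-Bmp4 against 811294 and 738336 in wild-type arches. Of 11 cranial sensory neuron markers, 2 were higher (Isl1 and Ntrk2), while 6 had negative log2 fold changes, among them Pou4f1 at -1.10, which did not pass, and the median was -0.10 (0.24 after the correction for transcript length described later). The sum was 2983 and 2536 in Wnt1-Cre;pMes-Bmp4 against 1953 and 1331 in wild-type arches, of which Isl1 alone gave 1786 and 1667 against 827 and 563. Of 10 endothelium and 7 muscle progenitor markers none passed (0 in each list in limma, with 5 and 3 at an unadjusted p under 0.05). Emcn, Esam and Tcf21 stood at 0.0583, 0.0841 and 0.0557 (limma adjusted p). The endothelium sum was 7041 and 6969 in Wnt1-Cre;pMes-Bmp4 against 5636 and 5612 in wild-type arches. The muscle progenitor sum was 4485 and 4188 against 3089 and 2973. The median log2 fold change of that list was 0.56, with 6 genes positive and 1 negative. No marker of these 5 lists was at 0 in all 4 libraries, and Krt5, Prph, Myod1, Musk and Myog were below the minimum. The part of these cells in the Sox and Runx values was not tested. In RNA of a whole arch, fewer cells of a type and less RNA per cell cannot be told apart.

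The members lie on 7 chromosomes of GRCm38. Sox5 spans 143828425 to 144781977 on chromosome 6 and Sox6 spans 115470872 to 116038796 on chromosome 7, both with many annotated transcripts (14 and 16). Sox8 and Sox9 are compact, at 25565892 to 25570686 on chromosome 17 and 112782224 to 112787760 on chromosome 11. Runx1 lies at 92601466 to 92826149 on chromosome 16, Runx2 at 44495987 to 44814797 on chromosome 17, Runx3 at 135120652 to 135177990 on chromosome 4, and Cbfb at 105170674 to 105217989 on chromosome 8. Each Runx gene is known to be read from a distal and a proximal promoter, which give proteins with different starts. The deposited value is 1 number per gene, so the use of either promoter could not be read.

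RefSeq start sites on GRCm38.p6 were matched by symbol for 7 of the 8 genes. The 250 bases before 6 of these starts are shown because they set the CpG-rich and CpG-poor promoters of the family side by side. They hold part of the motif matches described after them. They read 5′ to 3′ on the gene's strand, and capitals mark a match on either strand to one of these motifs. The RUNX motifs searched were TGTGGT, which reads ACCACA on the other strand, together with its variant TGCGGT. The SOX motifs searched were AACAAT, together with ACAAAG. The SMAD motif searched was GGCGCC, which is its own reverse complement.
Sox6 (chr7:116038745-116038994, minus strand): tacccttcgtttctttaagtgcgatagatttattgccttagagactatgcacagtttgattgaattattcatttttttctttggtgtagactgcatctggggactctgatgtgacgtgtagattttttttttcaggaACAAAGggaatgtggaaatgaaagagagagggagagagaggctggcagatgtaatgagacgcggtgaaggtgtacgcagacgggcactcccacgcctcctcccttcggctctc
Sox8 (chr17:25570687-25570936, minus strand): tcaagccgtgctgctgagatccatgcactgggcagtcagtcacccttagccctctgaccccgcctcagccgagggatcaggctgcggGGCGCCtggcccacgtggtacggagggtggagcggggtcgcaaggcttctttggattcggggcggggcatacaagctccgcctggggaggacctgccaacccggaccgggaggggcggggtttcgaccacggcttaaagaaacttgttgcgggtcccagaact
Runx1 distal (chr16:92826075-92826324, minus strand): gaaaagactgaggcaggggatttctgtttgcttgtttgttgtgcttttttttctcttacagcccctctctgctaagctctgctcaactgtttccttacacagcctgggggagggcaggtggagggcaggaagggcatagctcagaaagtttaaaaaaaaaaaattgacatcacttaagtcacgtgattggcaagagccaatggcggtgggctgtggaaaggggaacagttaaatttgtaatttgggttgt
Runx1 proximal (chr16:92697330-92697579, minus strand): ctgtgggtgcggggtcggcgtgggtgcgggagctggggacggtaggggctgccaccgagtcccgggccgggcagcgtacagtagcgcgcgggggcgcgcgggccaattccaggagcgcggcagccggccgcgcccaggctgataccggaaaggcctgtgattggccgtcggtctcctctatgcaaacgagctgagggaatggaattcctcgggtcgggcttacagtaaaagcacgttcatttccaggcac
Runx2 (chr17:44814628-44814877, minus strand): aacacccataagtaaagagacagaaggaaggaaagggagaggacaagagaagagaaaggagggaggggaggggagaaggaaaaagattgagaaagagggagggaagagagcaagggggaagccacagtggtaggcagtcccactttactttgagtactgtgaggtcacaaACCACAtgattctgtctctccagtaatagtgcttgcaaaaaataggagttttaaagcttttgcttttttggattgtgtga
Runx3 distal (chr4:135120395-135120644, plus strand): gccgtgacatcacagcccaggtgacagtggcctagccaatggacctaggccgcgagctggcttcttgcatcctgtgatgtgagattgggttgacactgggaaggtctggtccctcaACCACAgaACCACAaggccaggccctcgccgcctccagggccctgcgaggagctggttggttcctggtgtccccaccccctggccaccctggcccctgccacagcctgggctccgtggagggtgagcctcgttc
The Runx1 distal window had a GC content of 45.6% with 2 CpG dinucleotides, and the proximal one 67.6% with 27. The Runx2 window, at the distal end of the gene, had 44.8% and 0 CpG, and no proximal Runx2 start was matched. The distal Runx3 window had 65.2% and 8, the proximal one, not shown, 78.8% and 38, and the Sox8 window 65.6% and 18. Medians over 32851 RefSeq promoters were 52.4% and 6. ACCACA stands once before Runx2, 80 to 75 bases upstream of the start, and at a pair of places before the distal Runx3 start, at 134 to 129 and 126 to 121 bases. TGTGGT or ACCACA was held by 14% of all promoters in windows of this length. Sox6 has 6 starts in RefSeq, and ACAAAG stands once before the one shown, and that motif was held by 16.5% of all promoters. GGCGCC stands once before Sox8, 163 to 158 bases upstream, and was held by 9.59% of all promoters. The other motifs, TGCGGT and AACAAT, had shares of 5.1% and 9.42%. The windows of Runx1, Sox5 and Cbfb held none of these letters. A match is a description of the sequence and not a binding site.

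Sox9, the regulator of the cartilage lineage, was the most abundant of the 4 Sox genes. It had 2843 and 1859.9 normalized reads in Wnt1-Cre;pMes-Bmp4, against 3174 and 4424 in wild-type arches. Both transgenic libraries were below both wild-type libraries, as for 4 of the 7 genes tested (Sox5, Sox6, Sox9 and Runx2) and for 29.7% of all genes tested. The opposite arrangement, with both transgenic libraries above, was seen for 0 of the 7 and for 30% of all genes tested. The mean was 2352 ± 695 in Wnt1-Cre;pMes-Bmp4 and 3799 ± 884 in wild-type arches (SD, n = 2 each), which is 1.63-fold lower in the transgenic arches (-0.70 ± 0.24 on the log2 scale, SE, limma adjusted p 0.106). The libraries within a group lay almost as far apart as the groups. Transgenic library 1 was 1.53 times transgenic library 2, and wild-type library 2 was 1.39 times wild-type library 1. Counting error was much smaller than that: the exact Poisson 95% intervals of the transgenic libraries were 2736 to 2953 and 1768 to 1955.

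Sox8, the other SoxE gene among the members, had 253 and 187 normalized reads in Wnt1-Cre;pMes-Bmp4, against 248 and 393 in wild-type arches. The groups overlapped, with transgenic library 1 above wild-type library 1. On the log2 scale the difference was -0.52 ± 0.29 (SE, limma adjusted p 0.275). Exons of Sox8 share 329 bases with 2810468N07Rik on the opposite strand, which had 144 to 163 normalized reads in the 4 libraries, and strandedness of the counting is not stated, so reads in that stretch cannot be separated. Sox9 to Sox8 stood at 8.16 and 7.23 in Wnt1-Cre;pMes-Bmp4, against 9.29 and 8.17 in wild-type arches, as a ratio of normalized reads per kilobase of the longest transcript.

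Sox5 and Sox6, the SOX9 partners, lay lower in both transgenic libraries. Sox5 had 1025 and 786 normalized reads in Wnt1-Cre;pMes-Bmp4, against 1144 and 1338 in wild-type arches, a difference of -0.46 ± 0.18 on the log2 scale (SE, limma adjusted p 0.148). Sox6 had 413 and 361, against 561.5 and 594, a difference of -0.58 ± 0.17 on the log2 scale (SE, limma adjusted p 0.0817, the smallest among the 7 genes). The groups did not overlap for either gene, and the Sox6 libraries of each group were close together, at ratios of 1.14 in Wnt1-Cre;pMes-Bmp4 and 1.06 in wild-type arches. The exons of Sox5 share 1330 bases with Sox5os1 on the opposite strand, which had at most 2.13 normalized reads.

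**Figure D1:**
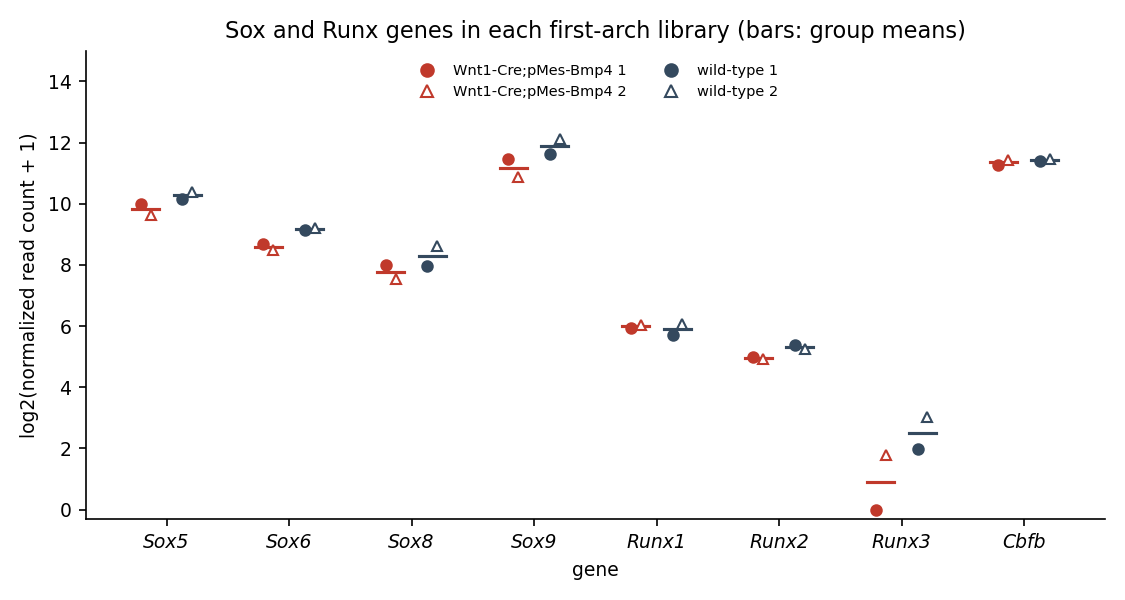
Normalized read counts of the 8 genes on a log2(value + 1) scale, with 1 point per library and a bar at each group mean of the log2 values; Wnt1-Cre;pMes-Bmp4 is in red and left of wild-type in dark blue. All 4 Sox genes have a lower transgenic mean, Sox8 overlaps between groups, Cbfb is level, and Runx3 lies near 0.

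The 4 Sox genes shared the same extremes. In each of them transgenic library 2 was the lowest of all libraries, and wild-type library 2 was the highest. Genes outside the family, such as Yap1 and Tle3, had these extremes too, and their share over all genes was not counted. Set against the sum of the 4 Sox genes per kilobase, the composition moved little. Sox9 took 71.6% and 67.9% of that sum in Wnt1-Cre;pMes-Bmp4, against 71.5% and 73.6% in wild-type arches. Sox5 took 14.7% and 16.4%, against 14.7% and 12.7%, Sox8 took 8.77% and 9.4%, against 7.7% and 9.01%, and Sox6 took 4.95% and 6.29%, against 6.04% and 4.72%. The ratio of SoxE (Sox8 and Sox9) to SoxD (Sox5 and Sox6) per kilobase was 4.08 and 3.41 in Wnt1-Cre;pMes-Bmp4, against 3.82 and 4.74 in wild-type arches. The groups overlapped for this ratio and for the shares of Sox6, Sox8 and Sox9, and the Sox5 shares of the libraries numbered 1 were nearly equal.

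Runx2, the regulator of the bone lineage, was close to the lower limit of what was tested. It had 30.9 and 29.1 normalized reads in Wnt1-Cre;pMes-Bmp4, from 29 and 24 reads, against 40.8 and 37 in wild-type arches, from 55 and 36 reads. Both transgenic libraries were the lower ones, but the exact Poisson 95% intervals, 20.7 to 44.4 and 18.6 to 43.3 in Wnt1-Cre;pMes-Bmp4 and 30.7 to 53.1 and 25.9 to 51.3 in wild-type arches, all overlapped. The log2 fold change was -0.36 ± 0.40 (SE), its 95% interval ran from -1.30 to 0.57, and it did not pass (limma adjusted p 0.581). Of the 5 genes that overlap Runx2, Supt3 lies on the opposite strand with no exon in common and had 690 to 782 normalized reads, and Runx2os1 shares 519 exon bases and had at most 6.17.

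Runx1, the blood regulator, had 60.8 and 64.3 normalized reads in Wnt1-Cre;pMes-Bmp4, against 51.2 and 66.9 in wild-type arches. The wild-type libraries enclosed both transgenic ones. On the log2 scale the difference was 0.09 ± 0.34 (SE, limma adjusted p 0.877), and the sign turned to -0.10 without wild-type replicate 1. Runx3 was listed at 0 and 2.42 in Wnt1-Cre;pMes-Bmp4, against 2.97 and 7.2 in wild-type arches, which is 2 reads over the transgenic group and 11 over the wild-type group. The 0 allows up to 3.2 normalized reads, and the ratio of the summed levels was 0.239 with an exact conditional 95% interval of 0.0258 to 1.1. Intervals and limits of this kind cover counting error only. Runx3 was below the minimum mean of 10 and was not tested.

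Cbfb, the shared RUNX partner, was the most even of the 8 genes. It had 2467 and 2753.5 normalized reads in Wnt1-Cre;pMes-Bmp4, against 2716 and 2823 in wild-type arches, and the groups overlapped. On the log2 scale the difference was -0.09 ± 0.13 (SE, limma adjusted p 0.69), with a 95% interval of -0.39 to 0.22. Cbfb exceeded the summed Runx genes per kilobase 56.3 and 59.2 times in Wnt1-Cre;pMes-Bmp4, and 59.4 and 51.4 times in wild-type arches. Within the Runx sum, Runx1 took 68.4% and 68.1% in Wnt1-Cre;pMes-Bmp4, against 55.2% and 60.1% in wild-type arches, and Runx2 took 31.6% and 28%, against 39.9% and 30.2%. The Runx1 shares did not overlap between groups, and they rest on 53 to 69 Runx1 reads per library. With all annotated exons as the length, the Runx1 share ran from 45% to 59.1% over the 4 libraries.

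**Figure D2:**
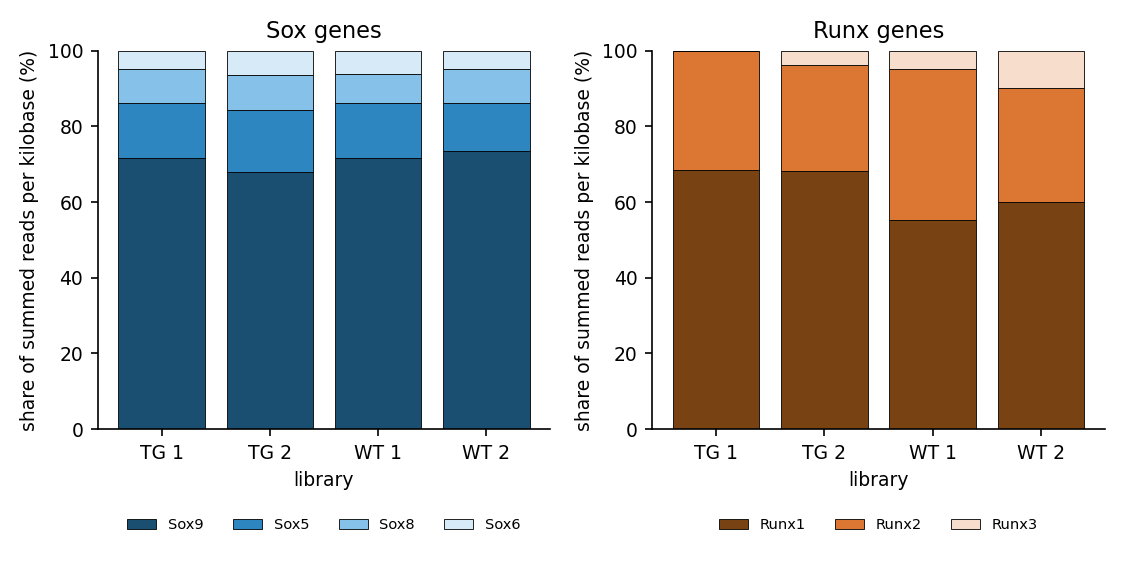
Share of each gene in the summed normalized reads per kilobase of longest transcript, for the 4 Sox genes (left) and the 3 Runx genes (right), with 1 stacked bar per library; TG is Wnt1-Cre;pMes-Bmp4 and WT is wild-type. Sox9 takes 67.9% to 73.6% of the Sox bars, and Runx1 and Runx2 make up nearly all of the Runx bars.

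Levels per kilobase of the longest transcript had the same order in both groups. From the top, Cbfb stood at 853 and 952 in Wnt1-Cre;pMes-Bmp4 against 939.6 and 977 in wild-type arches, and Sox9 at 688 and 449.8 against 768 and 1069.8. Those neighbours overlapped in wild-type arches and not in the transgenic ones, and no other pair of neighbours in this order overlapped within a group. Sox5 followed at 141.5 and 108 against 158 and 185, Sox8 at 84.3 and 62.2 against 82.6 and 131, and Sox6 at 47.6 and 41.7 against 64.8 and 68.6. The Runx genes came last, Runx1 at 10.4 and 11 against 8.73 and 11.4, Runx2 at 4.79 and 4.5 against 6.31 and 5.73, and Runx3 at 0 and 0.624 against 0.764 and 1.85. Sox5 and Sox8 exchanged places in some libraries when all annotated exons were taken as the length, at 71.3 and 54.7 for Sox5 and 81.1 and 59.9 for Sox8 in Wnt1-Cre;pMes-Bmp4. On that length Runx1 and Runx2 also exchanged places in wild-type library 1, at 4.26 for Runx1 and 4.62 for Runx2.

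The Sox differences depended on which library was left out. Without Wnt1-Cre;pMes-Bmp4 replicate 1, the log2 fold changes were -0.65 for Sox5, -0.68 for Sox6, -0.74 for Sox8 and -1.01 for Sox9. A fit without 1 library has a group of 1 library, whose own spread cannot be estimated and was assumed to be like the others. Calls from such fits, here and below, therefore do not measure how sure a difference is. Without Wnt1-Cre;pMes-Bmp4 replicate 2 the differences were smaller, at -0.27 for Sox5, -0.48 for Sox6, -0.30 for Sox8 and -0.40 for Sox9. Without wild-type replicate 1 and without wild-type replicate 2, Sox8 stood at -0.85 and -0.19 and Sox9 at -0.94 and -0.46, and none of the 7 genes passed. Those fits called 0 genes lower out of all tested, and 0% and 0.00597% higher, with 3185 and 1806 genes at an unadjusted p under 0.05.

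Transcript length moved with the genotype difference. Genes with a mean of 50 or more were set in 8 bins by length. The bin medians on the log2 scale were 0.19 from 2675 to 3276 bases, -0.00353 from 3966 to 4768, -0.22 from 4769 to 6346 and -0.56 from 6349 bases upward. Sox5, Sox6 and Runx2 have long transcripts, of 7243, 8668 and 6463 bases, and their differences lay near or above the median of their bin. After a correction for transcript length they stood at -0.02 (limma adjusted p 0.96), -0.04 (0.905) and 0.02 (0.983). Sox8 and Sox9 have transcripts of 3000 and 4135 bases and stood below their bins, and after the same correction they were at -0.67 (limma adjusted p 0.197) and -0.65 (0.137). Runx1, at 5861 bases, went to 0.41 and Cbfb, at 2891 bases, to -0.25, and neither passed. None of the 7 genes passed in limma after the correction, where 0.659% of genes were higher and 0.998% lower.

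**Figure D3:**
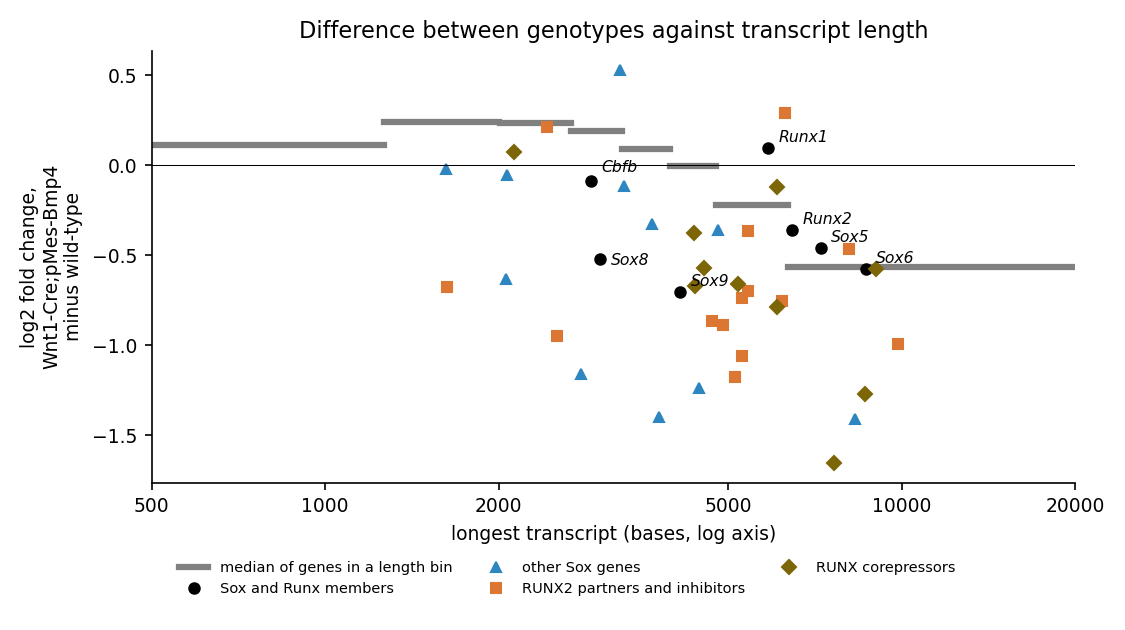
Log2 fold change between Wnt1-Cre;pMes-Bmp4 and wild-type against the length of the longest transcript, on a log axis; grey bars are medians in the 8 length bins (the first and last bins run past the axis), and points are single genes. Sox5 and Sox6 lie close to the -0.56 of the longest bin, while Sox8 and Sox9 lie below the medians of theirs.

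**Figure D4:**
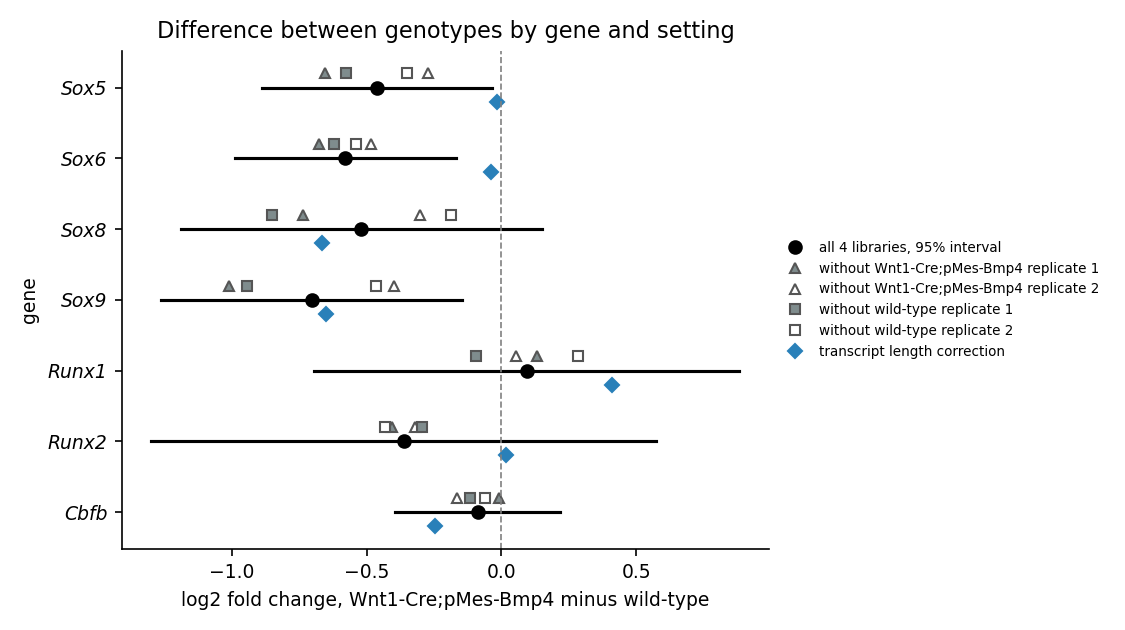
Log2 fold change of the 7 genes tested: black points and lines give the fit to all 4 libraries with its 95% interval, grey and open symbols the fits without 1 library, and blue diamonds the value after correction for transcript length. The diamonds of Sox5 and Sox6 sit at -0.02 and -0.04, those of Sox8 and Sox9 at -0.67 and -0.65, and every interval of the Runx genes and Cbfb includes 0.

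Cartilage genes that SOX9 is known to act on were in part already present. Of 18 listed, 12 reached the minimum level, 1 was lower, 0 were higher and 11 did not pass, with a median log2 fold change of -0.24, beside 0.02 over all genes tested. That median did not hold its sign: it was -0.08 with the length correction described above, 0.22 with length and GC (1 higher, 0 lower), and 0.06 without Wnt1-Cre;pMes-Bmp4 replicate 2. The one that fell was Col27a1, a fibrillar collagen of cartilage, at 85.3 and 58.2 normalized reads in Wnt1-Cre;pMes-Bmp4 against 184 and 178 in wild-type arches (log2 fold change -1.35, limma adjusted p 0.0397). Its transcript has 7612 bases, and after the length correction it was at -0.87 with a limma adjusted p of 0.127. Col2a1, the main collagen of cartilage, had 3581 and 2307 normalized reads in Wnt1-Cre;pMes-Bmp4 against 3006 and 4014 in wild-type arches, so the groups overlapped. Acan, Comp, Chad, Matn1, Col10a1 and Snorc, most of them genes of formed cartilage, were below the minimum. The Col27a1 call was lost without wild-type replicate 1 and without wild-type replicate 2, where none of the 12 passed in limma. With Wnt1-Cre;pMes-Bmp4 replicate 1 left out, the list's median was -0.40.

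Bone genes that RUNX2 is known to act on were mostly below the limit. Of 13 listed, 6 were tested and none passed (0 higher, 0 lower in limma, with 1 at an unadjusted p under 0.05), with a median log2 fold change of 0.27. Spp1, which encodes osteopontin, had 115 and 159 normalized reads in Wnt1-Cre;pMes-Bmp4 against 71.2 and 81.3 in wild-type arches (log2 fold change 0.82, limma adjusted p 0.123). Alpl, the tissue-nonspecific alkaline phosphatase, had 398 and 342 against 293.7 and 294.2 (log2 fold change 0.33, limma adjusted p 0.306). For both genes the transgenic libraries lay above the wild-type ones, without overlap. That arrangement held for 4 of the 6 genes tested and for 30% of all genes tested, and the reverse for 0 of the 6. Col1a2 was the 1 gene of the 6 with a negative log2 fold change, at -0.26. Sp7, Ibsp, Bglap, Bglap2, Mmp13, Phex and Dmp1 did not reach the minimum, and Bglap2 was listed at 0 in all 4 libraries.

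Among proteins that bind or restrain RUNX2, the test called 5 of 14 lower and 0 higher, and 9 missed the threshold. The list's median was -0.75. Yap1, a coactivator of the Hippo pathway, was at 1610 and 1280 normalized reads in Wnt1-Cre;pMes-Bmp4 against 2762 and 3245 in wild-type arches, -1.06 ± 0.16 on the log2 scale (SE, limma adjusted p 0.0233). Trps1, a GATA-type repressor, fell 1.99-fold, Smurf2, a ubiquitin ligase, 1.67-fold, and Zfp521, a zinc finger antagonist of RUNX2, 1.69-fold (limma adjusted p 0.031, 0.031 and 0.0411). The fifth, Wwtr1, the relative of Yap1, fell 1.82-fold (limma adjusted p 0.0441). Twist1, whose protein holds RUNX2 in check, had 2556 and 2121 normalized reads in Wnt1-Cre;pMes-Bmp4 against 3324 and 4162 in wild-type arches and missed the threshold (limma adjusted p 0.0502). The last 2 were named after their values were seen. After the length correction Yap1 still passed, at -0.82 with a limma adjusted p of 0.0491, and the other 4 calls were lost, with a list median of -0.47. With length and GC corrected together 4 of the 14 were lower. No call of this list held without wild-type replicate 1 or without wild-type replicate 2. The list's median was -0.85 without Wnt1-Cre;pMes-Bmp4 replicate 1 and -0.72 without its replicate 2.

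The corepressors that RUNX and related factors recruit gave 2 lower, 0 higher and 8 not past the threshold among 10 genes tested, with a median of -0.62. Tle3, a Groucho-type corepressor, was at 594 and 455 normalized reads in Wnt1-Cre;pMes-Bmp4 against 1055.5 and 1494 in wild-type arches (log2 fold change -1.27, limma adjusted p 0.0268). Sin3a, a scaffold of histone deacetylase complexes, fell 1.58-fold (limma adjusted p 0.0391). After the length correction they stood at -0.73 (limma adjusted p 0.0842) and -0.43 (0.145). Neither call held without either of the wild-type libraries. The median of the corepressors was -0.65 without Wnt1-Cre;pMes-Bmp4 replicate 1 and -0.49 without its replicate 2.

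**Figure D5:**
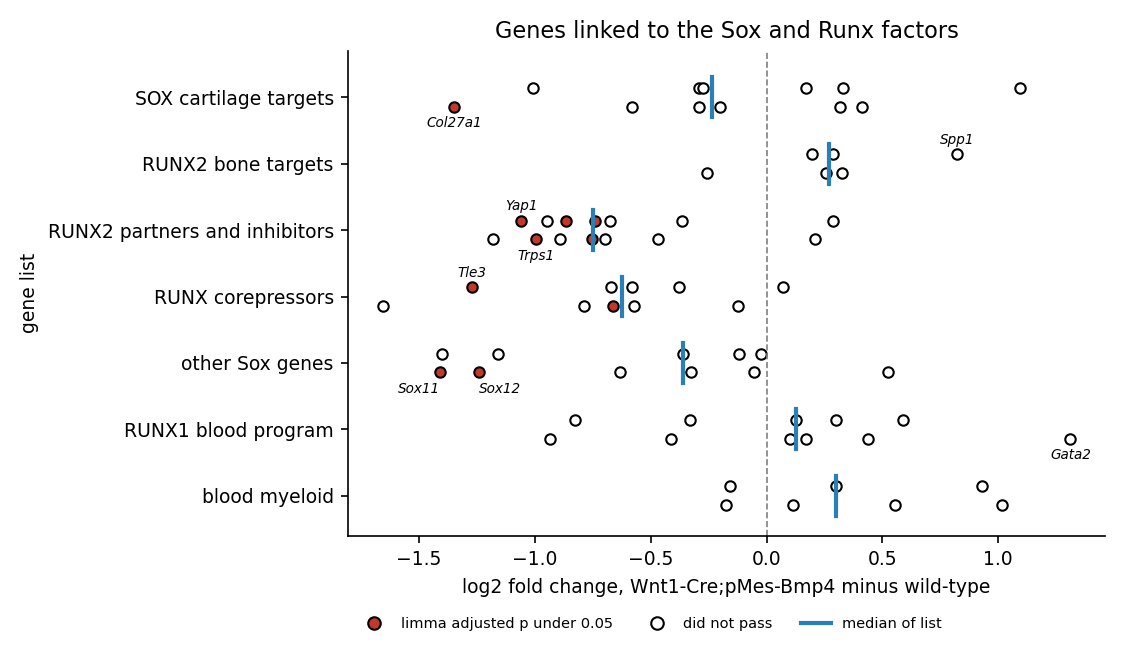
Log2 fold change of each gene tested in 7 lists, with red points past a limma adjusted p of 0.05, open points not past it, and a blue line at the list's median. Red points lie to the left of 0 in the 4 lists of cartilage targets, RUNX2 partners, corepressors and other Sox genes, and none lies to the right.

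Other Sox genes included larger differences than the members. Of 15 listed, 11 were tested, of which 2 passed as lower and 0 as higher, and the median of the 11 was -0.36. Sox11 and Sox12, SoxC factors of mesenchymal and neural progenitors, were the ones that fell. Sox11 had 5110 and 4376 normalized reads in Wnt1-Cre;pMes-Bmp4 against 11265 and 14033 in wild-type arches, a difference of -1.41 ± 0.15 on the log2 scale (SE, limma adjusted p 0.0194), and after the length correction it was at -0.89 with a limma adjusted p of 0.0372. Sox12 had 801 and 461 against 1237 and 1669 (log2 fold change -1.24, limma adjusted p 0.042) and did not pass after the correction (limma adjusted p 0.0633). The third SoxC gene, Sox4, overlapped between groups, at 3267 and 1570 against 2567 and 3295. No call of this list held without wild-type replicate 1 or 2. Its median was -0.83 without Wnt1-Cre;pMes-Bmp4 replicate 1 and -0.14 without its replicate 2.

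Blood genes were read beside Runx1, which blood cells also express. In the RUNX1 blood list 0 of 11 genes tested passed in limma, with 2 at an unadjusted p under 0.05, namely Gata2 and Lmo2 (limma adjusted p 0.0579 and 0.139). The list's sum was 1779 and 1897 in Wnt1-Cre;pMes-Bmp4 against 1331 and 1445 in wild-type arches, but the list median was 0.13 (-0.08 with length corrected). Of the 11 genes, 4 had both transgenic libraries below both wild-type ones and 5 had both above, against 29.7% and 30% of all genes tested. Tal1, at -0.93, and Lyl1, at -0.82, were among the negative genes and did not pass. In the myeloid list 0 of 7 passed in limma, and 0 at an unadjusted p under 0.05, led by C1qb and Tyrobp (limma adjusted p 0.238 and 0.293), with sums of 310 and 152 against 199 and 170. Gfi1, Csf1r, Cx3cr1 and C1qa were below the minimum, and no gene of either list was at 0 in all libraries. Sox10, the SoxE gene of glia that is no member here, had 97.1 and 61.8 normalized reads in Wnt1-Cre;pMes-Bmp4 against 148 and 206 in wild-type arches and did not pass (limma adjusted p 0.0721). The part of blood and glial cells in the values of Runx1, Sox8 and Sox9 was not tested.

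Genes with the pattern nearest to Sox9 over the 4 libraries, by Euclidean distance of mean-centred log2 values among 11280 genes, were Notch3, Ankrd52 and Capn15, at distances of 0.04, 0.05 and 0.06. Their differences were -0.73, -0.73 and -0.67 on the log2 scale, and none passed in limma (adjusted p 0.14, 0.147 and 0.136). Nearest to Runx2 were Spata2, Trib3 and Cyfip2, at 0.02, 0.03 and 0.04. With 4 libraries a short distance is common: 103 genes lay within 0.2 of Sox9 and 368 within 0.2 of Runx2.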

How the data were processed

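Reads of polyA-selected RNA were counted per gene with featureCounts, per the file headers, while fastp 0.21.0 and mm10 are listed in the submitters' processing notes. The deposited values are a normalized signal, the read counts divided by 1 size factor per library by the authors. Every value (100%) was a whole multiple of its column's smallest value within 0.01, so whole reads were recovered. For the aligner, annotation release, strand setting and normalizing tool, the entry is: not given in the sources used here. Totals of 29607541 to 47849092 reads set the counting precision.

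Genes with a mean of 10 or more (16746) were tested on log2(value + 1) by limma with a variance trend (version 3.58.1, R 4.3.3), two-sided, with Benjamini-Hochberg adjustment over all of them and a threshold of 0.05. The pseudocount understates changes of low genes. Fold changes are Wnt1-Cre;pMes-Bmp4 over wild-type. The fit had 2 residual and 5.26 prior degrees of freedom. An exact two-sided permutation test of 2 against 2 libraries cannot go below 0.333. The labels do not say that libraries came from separate embryos or litters, so the p-values rest on the spread of these samples alone, and that spread may be technical. Whole reads were also tested with edgeR 4.0.16, which called 409 genes higher and 915 lower, and DESeq2 1.42.0. The steps were tested on simulated data.

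Lengths, GC content and coordinates came from GENCODE M21 (GRCm38, the assembly of mm10), using the longest transcript, for 16225 of the genes tested. The length correction subtracted from each library a spline with 4 degrees of freedom of its deviation on log2 length, fitted to genes with a mean of at least 50. Promoters came from RefSeq. The members and lists were chosen with earlier results of these data known. From each list at most 4 genes past the threshold were named by smallest p, or 2 where none passed, besides genes said to be chosen later and those named to describe a list. The list of glial crest markers and some single genes are not reported here. Of the names in the lists, Tle5 and Snorc were found under older symbols.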

Additional observations from a re-analysis of the deposited data

How the results depend on the processing

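The log2 fold changes of Sox5, Sox6, Sox8, Sox9 and Cbfb kept their sign under 16 alternatives each, between -0.65 and -0.02 for Sox5, -0.68 and -0.04 for Sox6, -0.85 and -0.19 for Sox8, -1.01 and -0.40 for Sox9, and -0.42 and -0.01 for Cbfb. Not all of these could turn a sign. Another minimum mean, or none, and a pairing of replicates as a block leave the fold change itself the same. Runx1 turned to -0.10 when a library was left out, with a range of -0.10 to 0.28 over the 4 libraries. Runx2 turned to 0.016 with the transcript length correction and to 0.069 with length and GC, and with its mean of 34.5 it gave no value at a minimum of 50; the cause was not tested. Over all genes, 498 were higher and 884 lower. DESeq2 gave 1234 and 1573, the length correction 107 and 162, and the length and GC correction 645 and 741. Leaving out 1 library gave 0 to 2675 higher and 0 to 2719 lower, and 0 to 4 of the Sox and Runx genes lower, against 0 with all libraries and 2 with DESeq2. With the replicate block 165 genes were higher and 543 lower, and no Sox or Runx gene passed (limma, 0 of 7, with adjusted p values of 0.119 to 0.917). Same-numbered libraries deviated with a correlation of -0.15, and a crossed pairing, chosen once the data had been seen, called 1763 higher and 1952 lower, 3 of the Sox and Runx genes among the lower. DESeq2 called 8 of the RUNX2 partners and 5 of the corepressors lower, against 5 and 2, and the replicate block 2 and 1. Counting error is widest for Runx2, at 24 to 55 reads per library, and Runx3, at 0 to 7.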

Other observations

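Several Sox genes outside the members had large differences that did not pass in limma. Sox21 had 20.3 and 46.1 normalized reads in Wnt1-Cre;pMes-Bmp4 against 66.8 and 102 in wild-type arches (log2 fold change -1.40, limma adjusted p 0.111). Sox2, a factor of epithelial and neural progenitors, had 527 and 349 against 706 and 627 (log2 fold change -0.63, limma adjusted p 0.123). Sox17, which marks endoderm and arterial endothelium, was at 290 and 139 against 131 and 148, so its higher mean rests on transgenic library 1. The vessel gene Sox18 overlapped between groups, at 494 and 331 against 352 and 479. Foxd3, a crest specifier kept in glial precursors, was at 11.7 and 4.85 normalized reads in Wnt1-Cre;pMes-Bmp4 against 36.3 and 28.8 in wild-type arches (limma adjusted p 0.0898). These genes were chosen after their values were seen, and no explanation was tested.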
